A study of Rattus norvegicus with 27 samples.

Results

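The cellular machinery that makes microRNAs (miRNAs) and the RNA-binding proteins described in their loading into extracellular vesicles (EVs) were followed at the mRNA level in cultured rat Schwann cells, the glia that ensheath axons of peripheral nerves. The genes were taken by name from the gene count table of the cells: Drosha, Dgcr8, Xpo5, Dicer1, Tarbp2, Ago1, Ago2, Hnrnpa2b1, Ybx1 and Syncrip. Of these 10 genes, 9 were rows among the 17315 of the table, and Dicer1 was not analysed here. All 9 passed the filter on low counts, with 10372 genes tested in all. Levels are given as CPM, counts scaled to a common library total. Because CPM is not scaled by transcript length, levels are compared between stages for 1 gene and never between genes.

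Primary Schwann cells, purchased and used at passages 3 to 5, were sampled at 3 stages. Undifferentiated cells were kept without dbcAMP, a form of the second messenger cyclic AMP that enters cells, and their medium is otherwise not given in the sources used here. Differentiated cells were held for 72 h with 1 mM dbcAMP in a low-serum medium. Dedifferentiated cells had the same treatment and then 72 h without dbcAMP in a complete medium with more serum, forskolin and neuregulin. All serum was depleted of exosomes. Stage and medium changed together and cannot be told apart. Each stage had 3 cell mRNA libraries and 3 miRNA libraries of EVs from the conditioned medium. Titles call the replicates biological without naming the cultures or animals, so p-values measure the spread between these libraries.

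An miRNA gene is transcribed as a long hairpin-bearing RNA. In the nucleus the Microprocessor, formed by the RNase Drosha and its RNA-binding partner Dgcr8, releases the precursor hairpin, and exportin-5 (Xpo5) carries it to the cytoplasm with the GTPase Ran. There Dicer, with the double-stranded RNA-binding protein Tarbp2, cuts the hairpin to a duplex, of which 1 strand is kept by an Argonaute protein to silence matching mRNAs. The RNA-binding proteins hnRNPA2B1, YBX1 and SYNCRIP have been described as carrying chosen miRNAs into EVs, hnRNPA2B1 through a GGAG motif and SYNCRIP through GGCU. In Schwann cells the miRNA pathway is known as necessary for myelination.

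Cell mRNA libraries held 10058735 to 16212278 estimated counts and EV miRNA libraries 81807 to 474965 counts. The lowest count of any of the 9 genes was 153, for Tarbp2 in an undifferentiated library. The Schwann cell markers S100b, Sox10, Ngfr and Erbb3 were all present, with summed levels of 6343 to 7944 CPM in undifferentiated, 4054 to 4459 CPM in differentiated and 7035 to 7385 CPM in dedifferentiated libraries. The lower sum in differentiated libraries came mainly from Ngfr (mean 4420, 1150 and 3720 CPM in that order of stages), with Sox10 at 1340, 1040 and 1460 CPM. S100b (407, 776 and 1040 CPM) and Erbb3 (808, 1260 and 1010 CPM) were higher in differentiated than in undifferentiated libraries. Summed levels of marker lists of other cells differed between stages and are given in the order undifferentiated, differentiated, dedifferentiated. The fibroblast list summed to 24363 to 29064, 11924 to 15586 and 15935 to 19352 CPM, mostly from the collagen genes Col1a1 (mean 17200, 6700 and 10800 CPM) and Col1a2 (8980, 7250 and 6450 CPM), with Lum at 0 and Pdgfra, Dcn and Thy1 averaging below 1 CPM at each stage. The neuron list summed to 71.0 to 232, 937 to 1299 and 177 to 255 CPM, nearly all from the neurofilament gene Nefl, with Rbfox3, Snap25 and Syt1 averaging below 0.1 CPM. The macrophage list summed to 0.322 to 1.64, 3.64 to 5.09 and 1.88 to 3.39 CPM with Aif1 and Adgre1 at 0, and the endothelial list to 1.21 to 3.08, 5.67 to 8.26 and 3.98 to 7.88 CPM with Cdh5 at 0. The 8 genes of dividing cells examined (Mki67, Top2a, Ccnb1, Ccna2, Cdk1, Pcna, Mcm2, Mcm5) were all present and moved with stage. Their summed level was 91.3 to 136 CPM in undifferentiated, 215 to 404 CPM in differentiated and 141 to 171 CPM in dedifferentiated libraries, and the part of these lists in the changes given here was not tested. In bulk RNA a change in level and a change in the share of cells that carry a transcript cannot be told apart.

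In differentiated cells the machinery did not move as a block. By edgeR's quasi-likelihood test with Benjamini-Hochberg adjustment over all genes, 5 genes rose against undifferentiated cells (Xpo5, Tarbp2, Ago2, Hnrnpa2b1, Ybx1), 3 fell (Drosha, Dgcr8, Ago1) and Syncrip was not called. This count stands against a background of 59.6% of all tested genes called in that comparison, 31.7% higher and 27.9% lower. The median size of a log2 change was 0.39 over the 9 genes and 0.47 over all tested genes. After withdrawal, 6 genes fell and 1 rose against a background of 46.4% called, 23.2% lower and 23.2% higher. In dedifferentiated against undifferentiated cells 2 genes were higher and none lower, against 29.4% of all genes called, 16.1% higher and 13.3% lower. At an unadjusted p under 0.05 that last edgeR comparison had 1 gene lower, Hnrnpa2b1, and the DESeq2 Wald test with adjustment also gave 1 lower. With a log2 change above 0.5 also required, 3, 2 and 0 genes were called in the 3 comparisons, against 43.8%, 31.1% and 19.7% of all genes. The libraries did not overlap between the stages compared for 7, 7 and 2 genes, against 66.3%, 58.5% and 43.9%. The 3 comparisons share libraries, so they are not independent of each other.

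**Figure D1:**
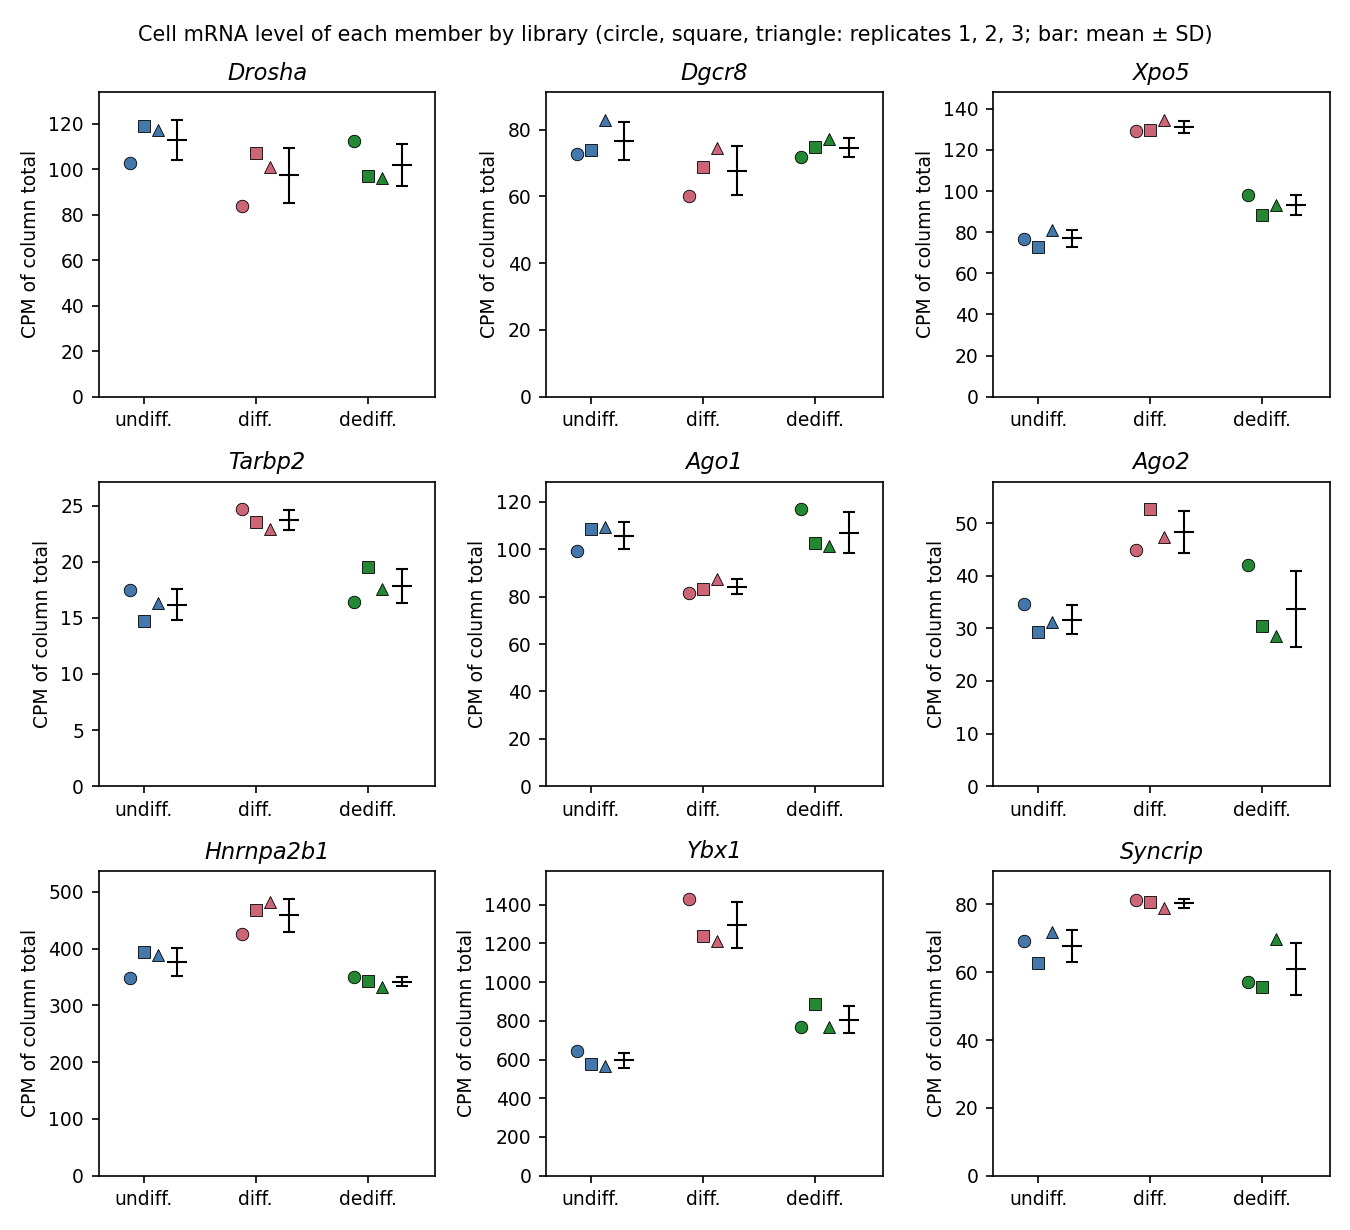
Level of each gene (y axis, CPM of the library total, from 0) in the 9 cell mRNA libraries by stage (x axis), with replicates 1, 2 and 3 as circle, square and triangle and the mean ± SD beside them. Xpo5, Tarbp2, Ago2, Hnrnpa2b1, Ybx1 and Syncrip have their 3 differentiated libraries above all undifferentiated ones, Ago1 has them below, and Drosha and Dgcr8 overlap.

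The Microprocessor genes had the smallest F statistics of the 9 over the 3 stages. Drosha, the nuclear RNase, was at 103, 119 and 117 CPM in the 3 undifferentiated libraries, at 83.8, 107 and 101 CPM in the differentiated ones and at 112, 96.9 and 96.2 CPM in the dedifferentiated ones. The ranges of all 3 stages overlapped. The fall under dbcAMP was small, a log2 change of -0.28 (SE 0.104, n = 3 per stage, adjusted p in edgeR = 0.0385). It lost its call without differentiated replicate 1 (0.141) or 3 (0.0669) and without undifferentiated replicate 2 (0.0737) or 3 (0.0871), and over 14 alternatives the edgeR or DESeq2 adjusted p ran from 0.0148 to 0.167. Between differentiated and dedifferentiated cells Drosha changed by 0.08 on the log2 scale (95% interval -0.15 to 0.31) and was not called.

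Dgcr8, the partner that recognises the hairpin, gave the same picture. Its level was 72.8, 73.8 and 83.0 CPM in undifferentiated, 60.0, 68.7 and 74.4 CPM in differentiated and 71.7, 74.9 and 77.3 CPM in dedifferentiated libraries. The highest differentiated library lay above the lower 2 undifferentiated ones. The log2 change under dbcAMP was -0.24 (SE 0.0856, adjusted p in edgeR = 0.0330). Without differentiated replicate 1 or 2 or undifferentiated replicate 3 the adjusted p rose to 0.129, 0.0718 and 0.114, and with column totals alone as scaling to 0.132, the highest of its 14 alternatives, of which the lowest was 0.0135. In dedifferentiated cells Dgcr8 was not called against either other stage. In the F-test over all 3 stages neither Drosha (adjusted p = 0.0801) nor Dgcr8 (0.0763) passed, while the other 7 genes did.

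Xpo5, which carries the precursor hairpin out of the nucleus, had the largest F statistic of the 9 genes over the 3 stages. Its level was 76.8, 72.9 and 81.1 CPM in undifferentiated cells, 129, 130 and 135 CPM in differentiated cells and 98.1, 88.5 and 93.1 CPM in dedifferentiated cells. No library of 1 stage overlapped another stage, with the differentiated libraries high and the dedifferentiated ones between. The rise under dbcAMP was 1.63-fold, a log2 change of 0.71 (SE 0.0738, adjusted p in edgeR = 1.34e-05). After withdrawal Xpo5 fell by 0.48 on the log2 scale (SE 0.0735, adjusted p = 0.000406). It stayed higher than in undifferentiated cells by 0.23 (SE 0.0740, adjusted p = 0.0398), a call that was lost when any 1 of the 6 libraries was left out (0.0511 to 0.175) and ranged from 0.0200 to 0.215 over all 14 alternatives.

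Dicer1 itself was not analysed here, so dicing is represented by its partner Tarbp2, which also helps hand the duplex to an Argonaute. Tarbp2 stood at 17.5, 14.7 and 16.4 CPM in undifferentiated libraries, at 24.7, 23.5 and 22.9 CPM in differentiated ones and at 16.4, 19.5 and 17.5 CPM in dedifferentiated ones. All differentiated libraries were above all others, and the other 2 stages overlapped. The gene rose 1.40-fold under dbcAMP (log2 change 0.49, SE 0.120, adjusted p in edgeR = 0.00491) and fell by 0.40 on the log2 scale after withdrawal (SE 0.120, adjusted p = 0.0187). The fall lost its call without differentiated replicate 1 (0.0590), dedifferentiated replicate 1 (0.0636) or dedifferentiated replicate 3 (0.0644), with adjusted p from 0.0145 to 0.149 over 14 alternatives.

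The 2 Argonaute genes of the set moved in opposite directions. Argonautes hold the mature miRNA, and Ago2 is the one known to cut a matching target. Ago1 was at 99.4, 108 and 110 CPM in undifferentiated, 81.3, 83.4 and 87.5 CPM in differentiated and 117, 103 and 101 CPM in dedifferentiated libraries. Every differentiated library was below every library of the other stages. Ago1 fell under dbcAMP by 0.39 on the log2 scale (SE 0.0808, adjusted p in edgeR = 0.00172) and rose by 0.36 after withdrawal (SE 0.0809, adjusted p = 0.00430). Both calls were kept under all 14 alternatives.

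Ago2 showed the reverse: 34.6, 29.2 and 31.2 CPM in undifferentiated, 44.9, 52.6 and 47.4 CPM in differentiated and 42.0, 30.4 and 28.6 CPM in dedifferentiated libraries. Differentiated libraries were the highest, and dedifferentiated replicate 1 lay close below them. Its rise under dbcAMP was 1.46-fold (log2 change 0.54, SE 0.148, adjusted p in edgeR = 0.00850), and after withdrawal it fell by 0.51 on the log2 scale (SE 0.148, adjusted p = 0.0170). The second call was lost without differentiated replicate 2 (0.0585) or dedifferentiated replicate 2 (0.0643) or 3 (0.0726), within a range of 0.00124 to 0.160 over 14 alternatives. Against undifferentiated cells, dedifferentiated cells had log2 changes of -0.03 for Ago1 (95% interval -0.21 to 0.15) and 0.04 for Ago2 (-0.29 to 0.37), neither called.

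Of the 3 genes for RNA-binding proteins described in EV sorting, Ybx1 changed most. YBX1 is a cold-shock domain protein that packages mRNA. Its level was 642, 577 and 568 CPM in undifferentiated, 1431, 1237 and 1213 CPM in differentiated and 767, 885 and 766 CPM in dedifferentiated libraries. The 3 stages did not overlap. Ybx1 rose 2.08-fold under dbcAMP (log2 change 1.06, SE 0.111, adjusted p in edgeR = 1.47e-05) and fell by 0.67 on the log2 scale after withdrawal (SE 0.111, adjusted p = 0.000668). In dedifferentiated cells it was still higher than in undifferentiated ones by 0.39 (SE 0.111, adjusted p = 0.0239), a call lost without undifferentiated replicate 2 (0.0975) or 3 (0.0858) or dedifferentiated replicate 2 (0.122), with a range of 0.00785 to 0.162 over 14 alternatives.

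The Ybx1 values are uncertain in 1 respect. It was the only gene of the 9 with fractional counts, in 9 of 9 libraries, and RefSeq lists 21 pseudogenes named after it, of which 1, Ybx1-ps3, was a row of the table. That row held 245 to 548 estimated counts in undifferentiated, 798 to 1214 in differentiated and 366 to 742 in dedifferentiated libraries, so how reads were split between the copies bears on the level of Ybx1.

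Hnrnpa2b1 encodes a nuclear RNA-binding protein that has also been described as reading methylated adenosines in miRNA primary transcripts. It was at 348, 394 and 388 CPM in undifferentiated, 426, 468 and 481 CPM in differentiated and 350, 342 and 333 CPM in dedifferentiated libraries. The differentiated libraries were above all others. The rise of 0.22 on the log2 scale (SE 0.0764, adjusted p in edgeR = 0.0271) was lost without undifferentiated replicate 1 (0.0777), 2 (0.0597) or 3 (0.0651) and without differentiated replicate 2 (0.0686) or 3 (0.0916), and ranged from 0.0115 to 0.234 over 14 alternatives. After withdrawal Hnrnpa2b1 fell by 0.41 (SE 0.0766, adjusted p = 0.00143). Its level then was 0.19 below that of undifferentiated cells on the log2 scale (95% interval -0.36 to -0.02), which the edgeR test did not call (adjusted p = 0.0899) and the DESeq2 Wald test did (0.0149, the lowest of 14 alternatives, the highest being 0.442).

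Syncrip, for an RNA-binding protein of mRNA transport and translation, was at 69.1, 62.6 and 71.7 CPM in undifferentiated, 81.4, 80.8 and 78.9 CPM in differentiated and 57.1, 55.8 and 69.7 CPM in dedifferentiated libraries. All differentiated libraries were the highest, yet the log2 change of 0.18 under dbcAMP (95% interval -0.02 to 0.39) did not pass the edgeR test (adjusted p = 0.115). The step after withdrawal did, with a fall of 0.39 on the log2 scale (SE 0.0944, adjusted p = 0.00679). Against undifferentiated cells the change was -0.20 (adjusted p = 0.133), which became a call without dedifferentiated replicate 3 (0.0423), the lowest p over 14 alternatives up to 0.270.

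**Figure D2:**
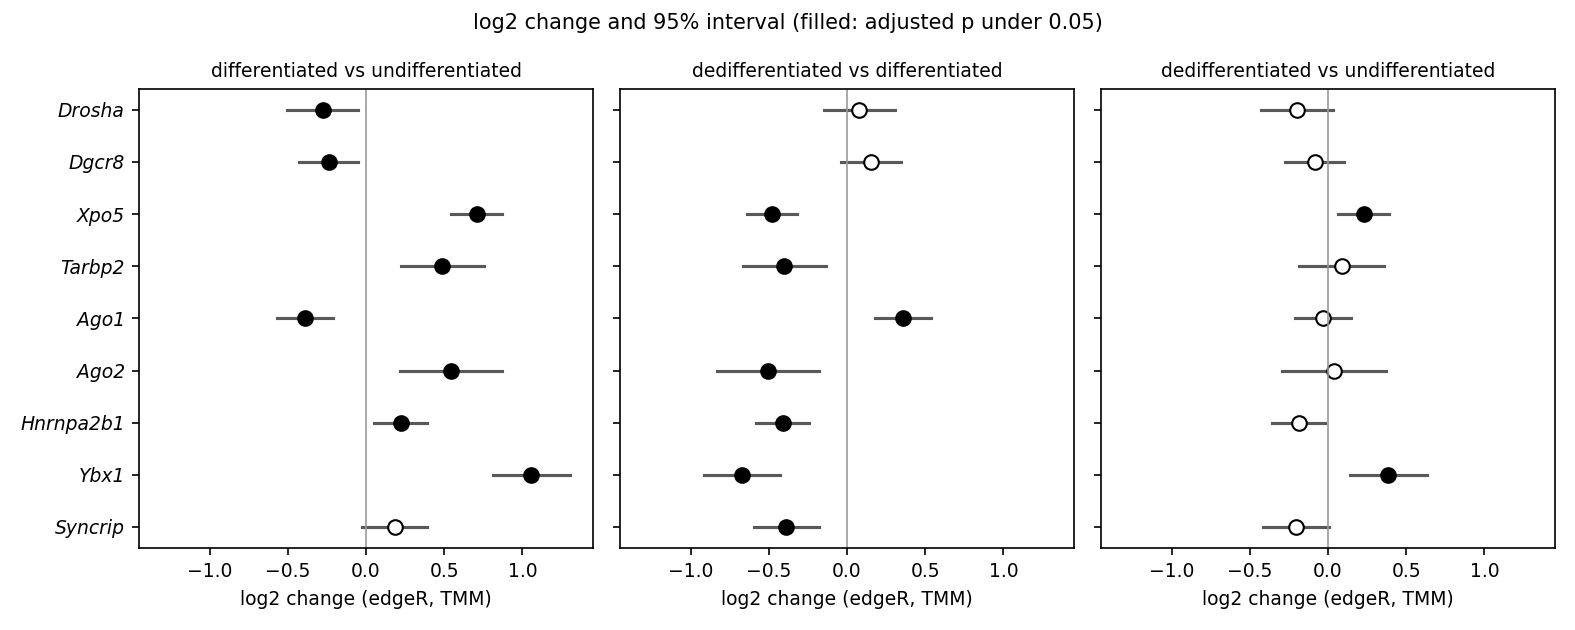
log2 change from edgeR (x axis) with its 95% interval for each gene (y axis) in the 3 stage comparisons, filled where the adjusted p was under 0.05. Ybx1 (1.06) and Xpo5 (0.71) have the largest rises under dbcAMP, Ago1 alone rises after withdrawal, and in dedifferentiated against undifferentiated cells only Xpo5 and Ybx1 are filled.

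For cell mRNA, replicate 3 of each stage was sequenced in another project than replicates 1 and 2, per the labels, while the EV miRNA libraries shared a project. With replicates 1 and 2 alone, Xpo5, Ybx1 and Ago1 were still called under dbcAMP. Tarbp2 then had a log2 change of 0.51 (adjusted p in edgeR = 0.0635), Ago2 of 0.53 (0.0596), Hnrnpa2b1 of 0.20 (0.234), Drosha of -0.29 (0.167) and Dgcr8 of -0.26 (0.110). These sizes were close to those over all libraries, with 2 libraries a stage behind them. After withdrawal Xpo5, Ybx1, Ago1 and Syncrip were called within that project, and Tarbp2 (-0.41, 0.149), Ago2 (-0.41, 0.160) and Hnrnpa2b1 (-0.35, 0.0723) were not. Dedifferentiated against undifferentiated, neither Xpo5 (0.26, adjusted p = 0.215) nor Ybx1 (0.38, 0.162) was called.

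Ratios between 2 genes of the same library need no scaling of depth or composition, and were chosen after the values had been seen. Counts of Ago2 relative to Ago1 were 0.348, 0.270 and 0.285 in undifferentiated libraries, 0.552, 0.631 and 0.542 in differentiated ones and 0.359, 0.296 and 0.283 in dedifferentiated ones. The differentiated libraries stood apart and the other stages overlapped. Counts of Xpo5 relative to Drosha were 0.746, 0.612 and 0.692, then 1.54, 1.21 and 1.33, then 0.873, 0.913 and 0.968 in the same order of stages, without overlap. Counts of Tarbp2 relative to Drosha were 0.1698, 0.1236 and 0.1395 in undifferentiated libraries. They were 0.2946, 0.2199 and 0.2266 in differentiated ones and 0.1463, 0.201 and 0.1822 in dedifferentiated ones. Here the differentiated libraries were the highest and the other stages overlapped. By contrast the ratio within the Microprocessor, Drosha to Dgcr8, lay between 1.24 and 1.61 over all 9 libraries and overlapped between all stages.

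**Figure D3:**
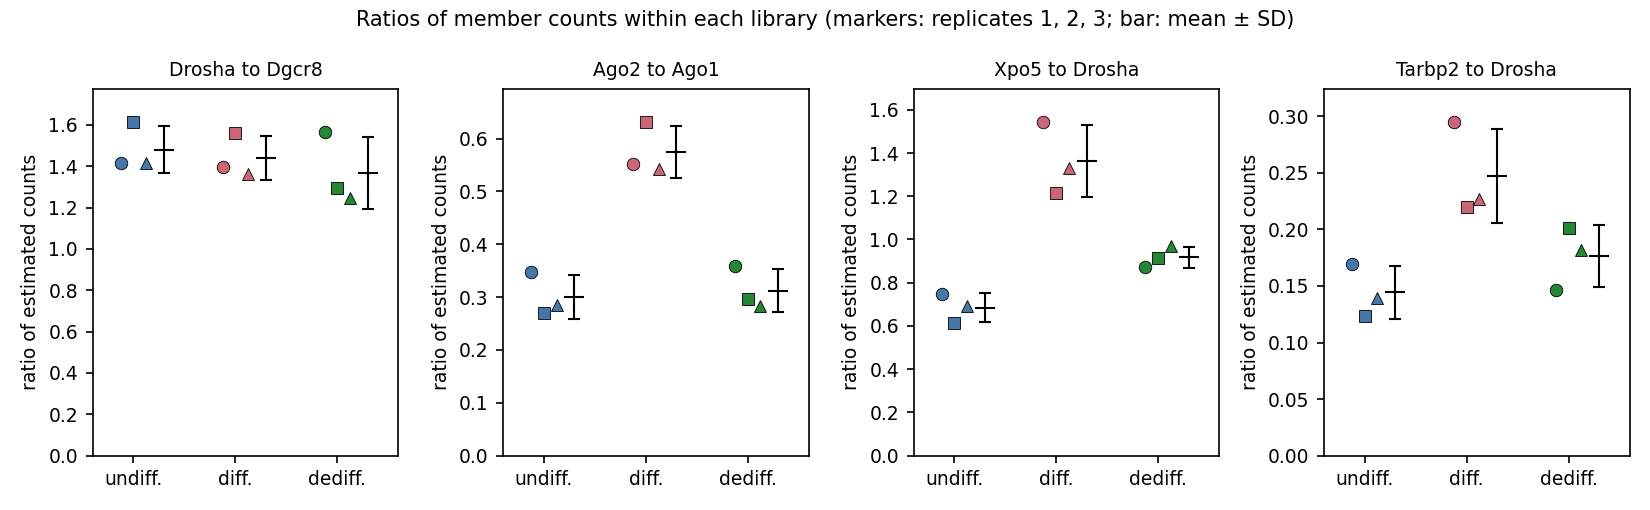
Ratio of estimated counts of 2 genes within each library (y axis, from 0) by stage (x axis), with replicates as in the plot of levels and the mean ± SD beside them. Drosha to Dgcr8 overlaps at all stages, Ago2 to Ago1 is highest in the 3 differentiated libraries (0.542 to 0.631), and Xpo5 to Drosha separates all stages. Tarbp2 to Drosha is highest in the differentiated libraries and overlaps between the other stages.

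The 5 tested genes whose log2 CPM followed Xpo5 most closely over the 9 libraries were Nat10 (Pearson r = 0.994), Elovl6 (0.993), Thrb (0.993), Mtmr10 (0.992) and Cpd (0.992), out of 10372 compared. They were picked for that likeness, the points share libraries and stages, and the coefficients describe a shared order of stages. Mean levels of Nat10, for example, were 16.8, 43.6 and 24.0 CPM in undifferentiated, differentiated and dedifferentiated cells.

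Promoters are shown for 4 genes that rose under dbcAMP, with 2 short motifs in capitals: TGACG, the half-site letters of the cyclic AMP response element, read as CGTCA on the other strand, and CCAAT, the letters of the CCAAT box, read as ATTGG on the other strand. The motifs do not overlap each other in these windows. The sequences are from RefSeq (GRCr8), 250 bases before to 50 after the start of the gene, and 8 of the 9 genes had an entry, all but Ago2.
Ybx1 promoter, chr5:138184139-138184438, minus strand: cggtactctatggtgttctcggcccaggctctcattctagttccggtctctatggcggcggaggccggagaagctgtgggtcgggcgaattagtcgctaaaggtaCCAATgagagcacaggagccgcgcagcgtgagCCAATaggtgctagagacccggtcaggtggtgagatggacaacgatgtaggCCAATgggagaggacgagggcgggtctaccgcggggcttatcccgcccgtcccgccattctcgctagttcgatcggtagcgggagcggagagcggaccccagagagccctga
Hnrnpa2b1 promoter, chr4:81875837-81876136, minus strand: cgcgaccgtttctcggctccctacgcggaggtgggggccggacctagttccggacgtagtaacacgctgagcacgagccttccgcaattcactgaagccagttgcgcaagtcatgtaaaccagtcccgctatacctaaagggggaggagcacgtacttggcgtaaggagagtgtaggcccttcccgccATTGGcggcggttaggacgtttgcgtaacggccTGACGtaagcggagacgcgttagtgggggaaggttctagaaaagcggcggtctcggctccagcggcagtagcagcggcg
Xpo5 promoter, chr9:22275696-22275995, minus strand: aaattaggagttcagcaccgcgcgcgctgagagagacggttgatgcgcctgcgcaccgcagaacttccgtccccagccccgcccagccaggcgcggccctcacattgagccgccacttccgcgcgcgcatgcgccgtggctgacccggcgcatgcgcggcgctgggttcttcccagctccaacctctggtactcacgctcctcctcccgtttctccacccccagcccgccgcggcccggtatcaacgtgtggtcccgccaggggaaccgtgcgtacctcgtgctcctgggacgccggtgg
Tarbp2 promoter, chr7:135527460-135527759, plus strand: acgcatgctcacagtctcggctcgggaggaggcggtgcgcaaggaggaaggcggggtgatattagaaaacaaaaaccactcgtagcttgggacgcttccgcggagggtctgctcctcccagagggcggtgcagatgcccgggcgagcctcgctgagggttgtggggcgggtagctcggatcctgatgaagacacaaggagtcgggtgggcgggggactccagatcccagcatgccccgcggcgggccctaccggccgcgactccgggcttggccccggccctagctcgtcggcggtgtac
Ybx1 held 3 CCAAT matches and no TGACG, Hnrnpa2b1 held 1 of each, and the windows of Xpo5 and Tarbp2 held neither set of letters. Among the 8 promoters, 3 held TGACG and 5 held CCAAT, against 21.2% and 37.5% of 33469 rat promoters of the same length. TGACG was in Drosha, which fell under dbcAMP, in Syncrip, which was not called, and in Hnrnpa2b1. CCAAT was in Ybx1 and Hnrnpa2b1 and in each of the genes that fell, Drosha, Dgcr8 and Ago1. A match describes letters alone and says nothing of binding.

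The rest of the pathway was read from a list of 66 genes in 7 functional groups, of which 60 were in the table and 57 were tested. Under dbcAMP 17 rose, 16 fell and 24 were not called, which is 57.9% called against the 59.6% of all genes. After withdrawal 8 rose, 17 fell and 32 were not called (43.9% against 46.4%). Dedifferentiated against undifferentiated, 2 were higher and 9 lower (19.3% against 29.4%). Over the whole list these shares are near or below the background. The share called differed between the groups, which were not tested as sets. The values below are those of single genes.

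Of the 4 other nuclear export genes, 3 rose and 1 fell under dbcAMP (100% called, against 59.6% of all genes). Ran, the GTPase whose cycle gives exportins their direction, went from 124 ± 15.8 to 227 ± 11.0 CPM (SD, n = 3; log2 change 0.81, adjusted p in edgeR = 0.000463), and returned to 129 ± 23.4 CPM after withdrawal (log2 change -0.81, adjusted p = 0.000799). Rangap1, which makes Ran hydrolyse GTP in the cytoplasm, rose by 0.99 (adjusted p = 6.23e-06) and fell by 0.80 (5.90e-05). Rcc1, the nuclear exchange factor that reloads Ran with GTP, rose by 0.98 (0.000320) and was not called after withdrawal (log2 change -0.29, adjusted p = 0.141). Xpo1, the exportin of many proteins, went the other way by -0.26 under dbcAMP (0.0105), a call that was lost without differentiated replicate 3 (0.0518).

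Among 9 tested nuclear cofactors of the Microprocessor, 5 rose and 1 fell under dbcAMP (66.7% called). Tardbp, an RNA-binding protein that binds Drosha, rose by 0.50 on the log2 scale (adjusted p in edgeR = 7.32e-05) and fell by 0.59 after withdrawal (4.36e-05). Hnrnpa1, which remodels some hairpins before cropping, rose by 0.56 (0.00200) and then fell by 1.08 (4.36e-05). The helicase gene Ddx5, a core Microprocessor cofactor, fell by 0.53 under dbcAMP (0.000615), with mean levels of 1469, 1065 and 1044 CPM in undifferentiated, differentiated and dedifferentiated cells.

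Of 9 tested genes of dicing and of loading, 2 rose and 1 fell (33.3% called). Prkra, which encodes the other double-stranded RNA-binding partner of Dicer, fell by 0.41 under dbcAMP (adjusted p in edgeR = 0.000474) where Tarbp2 rose. The chaperone gene Hspa8 rose by 0.37 (0.00565) and fell by 0.53 after withdrawal (0.000988). Hsp90aa1 had a log2 change of 0.07 under dbcAMP (0.541) and fell by 0.49 after withdrawal (0.00140).

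The remaining Argonaute genes, Ago3 and Ago4, averaged at most 10.1 CPM at any stage. Ago4 went from 3.93 ± 0.323 CPM in undifferentiated to 1.17 ± 0.322 in differentiated cells, and was 3.70 ± 0.603 CPM after withdrawal (SD, n = 3). This was a fall of 1.81 on the log2 scale (adjusted p in edgeR = 0.000321) followed by a rise of 1.68 (0.000953). Ago3 was at 6.62 ± 1.85, 10.1 ± 0.910 and 7.43 ± 1.69 CPM and was not called under dbcAMP (log2 change 0.53, adjusted p = 0.0621).

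Effectors downstream of Argonaute, with the mRNA decay enzymes they recruit, counted 7 genes lower and 2 higher of 12 tested under dbcAMP (75% called, against 59.6% of all genes), and 1 lower and 2 higher after withdrawal (25%, against 46.4%). The helicase gene Mov10 fell from 12.7 ± 0.936 to 2.93 ± 0.772 CPM (log2 change -2.17, adjusted p in edgeR = 4.15e-06) and was at 8.79 ± 0.303 CPM in dedifferentiated cells. The decapping enzyme gene Dcp2 fell by 1.26 (0.000246) and rose by 1.01 after withdrawal (0.00195). Limd1, a scaffold between Argonaute and its effectors, rose by 0.46 (0.000304) and fell by 0.83 (1.01e-05).

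Precursor regulators gave 1 gene higher and 2 lower of 9 tested under dbcAMP (33.3% called). Zc3h12a, an RNase that can cut precursor hairpins, fell from 16.3 ± 4.89 to 6.71 ± 0.332 CPM (log2 change -1.33, adjusted p in edgeR = 0.000321). Papd4, the current Tent2, a terminal nucleotidyltransferase, fell by 0.47 (0.000895), and the splicing regulator Mbnl1 rose by 0.56 (0.00324). Lin28a, the let-7 precursor blocker, had 0 to 10 estimated counts per library and was not tested.

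Other genes for proteins described in EV RNA sorting split 4 higher and 3 lower of 12 tested under dbcAMP (58.3% called). Caprin1 rose by 0.60 (adjusted p in edgeR = 2.30e-05) and fell by 0.46 after withdrawal (0.000301). Mvp, the major vault protein gene, fell by 0.52 (0.000283) and rose by 0.69 (7.24e-05). Ncl, for nucleolin, rose by 0.26 (0.0269), a call lost without undifferentiated replicate 2 (0.127) or 3 (0.0571) or differentiated replicate 2 (0.0998) or 3 (0.0545), and fell by 0.69 after withdrawal (0.000152). Igf2bp1 (0 to 1 counts) and Smpd3 (0 to 14 counts) were too low to test.

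**Figure D4:**
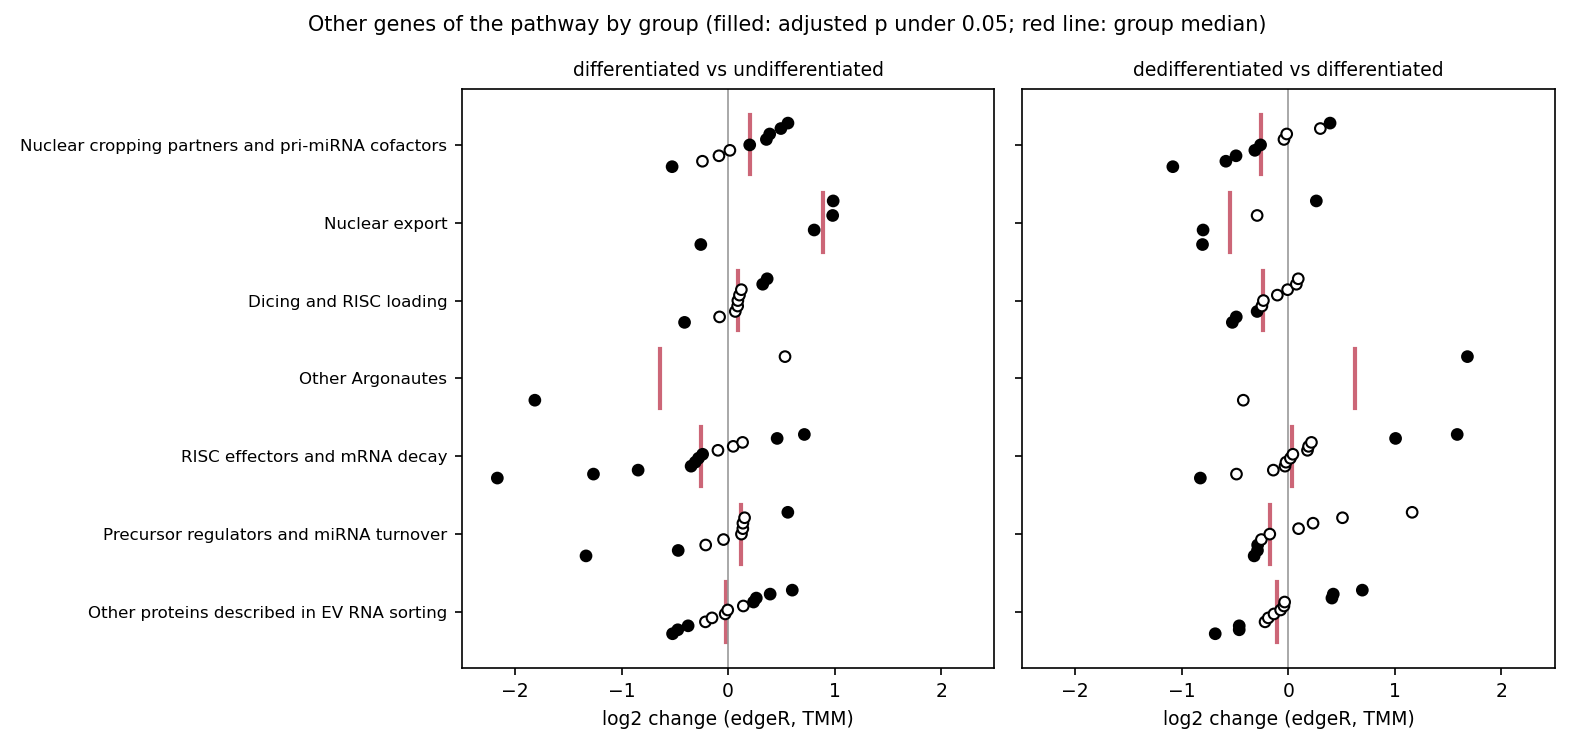
log2 change from edgeR (x axis) of each tested gene of the wider pathway list by functional group (y axis), under dbcAMP on the left and after withdrawal on the right, filled where the adjusted p was under 0.05 and with the group median in red. Under dbcAMP Rangap1, Rcc1 and Ran lie above 0 and Xpo1 below it, and Mov10 (-2.17) and Ago4 (-1.81) have the lowest values.

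The vesicle miRNAs were set beside this machinery, with sequences shown first. The series has no miRNA libraries of the cells, so whether these miRNAs were made by them was not tested. The let-7 family shares the seed (bases 2 to 8, in capitals), and it is the family whose precursors Lin28 proteins block. All sequences are mature miRNAs from RefSeq, which held 434 of the 481 mature entries of the table.
let-7a-5p: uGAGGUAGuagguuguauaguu
let-7b-5p: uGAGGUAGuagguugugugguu
let-7c-5p: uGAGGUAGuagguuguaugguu
let-7e-5p: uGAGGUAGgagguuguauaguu
let-7i-5p: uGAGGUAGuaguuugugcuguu
miR-98-5p: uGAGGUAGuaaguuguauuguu
The 9 family members examined made up 32.6%, 43.3% and 48.7% of mature counts in the undifferentiated, 40.3%, 50.2% and 53.6% in the differentiated and 33.3%, 50.5% and 45.4% in the dedifferentiated EV libraries. The stages overlapped. Between libraries of the same replicate number the differentiated share was above the undifferentiated one each time. The direction was mixed in the other comparisons, and EV numbers were not taken to pair. For let-7a-5p the levels were 6515, 9114 and 11830 CPM in undifferentiated, 13004, 18877 and 29775 CPM in differentiated and 13020, 17778 and 15399 CPM in dedifferentiated EVs, with every undifferentiated library below all others. None of the 9 was called in any comparison by edgeR fitted without a replicate block or by the DESeq2 Wald test. Without adjustment, let-7a-5p (log2 change 1.26), let-7f-5p (1.24) and let-7d-5p (1.20) were under 0.05 in differentiated against undifferentiated EVs, and none was in the other comparisons. Over all 361 tested entries that comparison had 0 calls (0%) by edgeR after adjustment, 29 at an unadjusted p under 0.05 and 5 adjusted calls by the DESeq2 Wald test. The absence of let-7 calls depended on the fit. With the replicate number as a block, edgeR called let-7a-5p, let-7d-5p and let-7f-5p higher in differentiated than in undifferentiated EVs (adjusted p = 0.00166 each). Under that block 10 of all entries were called there (2.77%). Blocked calls in the other comparisons are given at the end.

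The next pair shares another seed and is described as targeting the Dicer mRNA.
miR-103-3p: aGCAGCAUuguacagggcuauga
miR-107-3p: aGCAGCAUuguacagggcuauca
Levels of miR-103-3p were 97.8, 168 and 176 CPM in undifferentiated, 236, 229 and 296 CPM in differentiated and 298, 368 and 273 CPM in dedifferentiated EVs. Those values rested on 8 to 109 counts each. The undifferentiated libraries were the lowest 3, but edgeR did not call the difference to differentiated (log2 change 0.79, adjusted p = 0.670) or dedifferentiated EVs (1.05, 0.211). Levels of miR-107-3p overlapped between all stages.

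Among mature entries with a sequence, 42 of 434 (9.68%) held GGAG, the letters described for hnRNPA2B1, against 8.08% of 693 rat mature miRNAs in RefSeq. The 3 with the highest mean share of counts are printed with the motif in capitals, and 1 of them is also a let-7.
let-7e-5p: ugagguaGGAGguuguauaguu
miR-125b-1-3p: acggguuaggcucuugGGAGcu
miR-122-5p: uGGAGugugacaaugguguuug
Entries holding GGAG carried 1.52%, 1.59% and 1.37% of the counts with a sequence in undifferentiated, 1.78%, 1.54% and 1.56% in differentiated and 1.62%, 1.47% and 1.33% in dedifferentiated libraries. The stages overlapped. Means were 1.63% against 1.49% for differentiated against undifferentiated EVs (exact permutation test, two-sided, p = 0.4, adjusted 0.6). For dedifferentiated EVs the exact p was 0.3 against differentiated and 0.8 against undifferentiated ones. Between libraries of the same replicate number the dedifferentiated share was below the differentiated one each time, with mixed directions in the other comparisons. The permutation tests did not use these numbers.

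The SYNCRIP letters GGCU were held by 56 of 434 entries (12.9%, against 10.8% in RefSeq), of which the 3 most abundant follow.
miR-26a-5p: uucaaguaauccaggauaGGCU
miR-24-3p: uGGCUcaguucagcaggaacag
miR-146b-5p: ugagaacugaauuccauaGGCUgu
Their group carried far more of the counts, since miR-26a-5p alone held 10.3% ± 0.905 (SD, n = 9) of them. Shares were 23.5%, 19.8% and 18.9% in undifferentiated, 20.9%, 18.3% and 16.0% in differentiated and 25.3%, 17.5% and 22.1% in dedifferentiated libraries. Stages overlapped again. For libraries of the same replicate number the differentiated GGCU share was below the undifferentiated one each time. Directions were mixed in the other comparisons, and the tests here did not use these numbers either. Differentiated EVs had a mean of 18.4% against 20.7% in undifferentiated ones (two-sided exact permutation p = 0.4, adjusted 0.6), and dedifferentiated EVs had 21.6% (exact p = 0.3 against differentiated, 0.8 against undifferentiated). With 3 libraries against 3 the smallest p these 6 tests allow is 0.1.

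**Figure D5:**
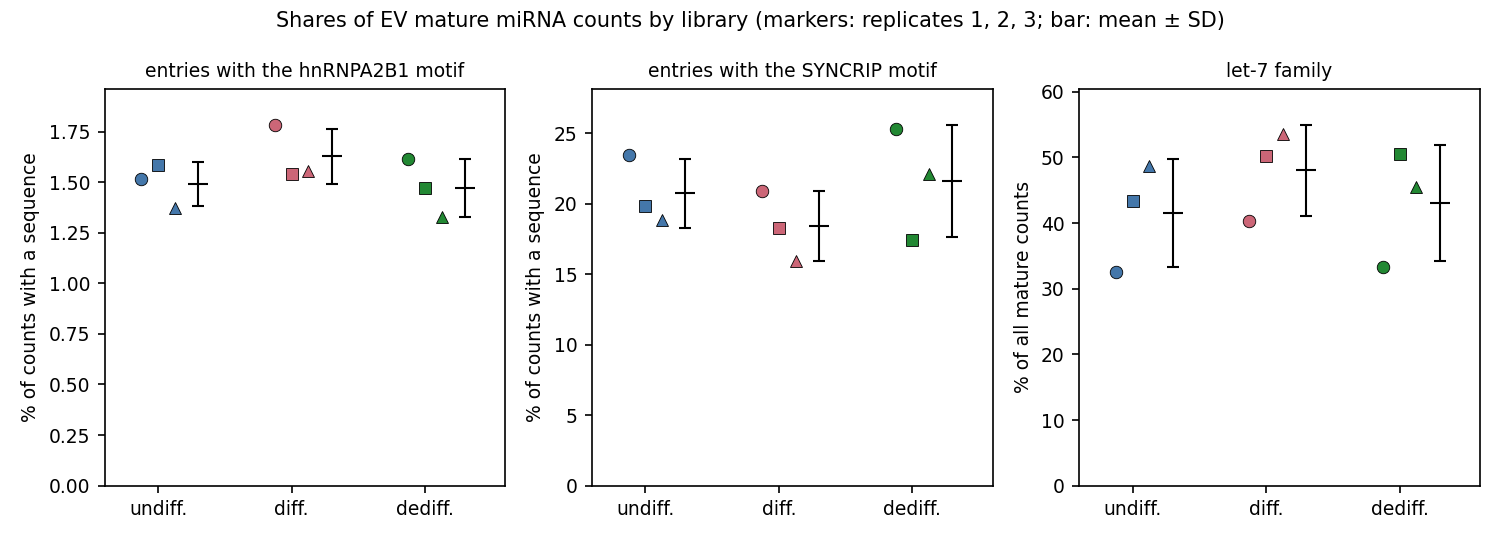
Share of mature EV miRNA counts (y axis, percent, from 0) in entries with the hnRNPA2B1 motif (GGAG), with the SYNCRIP motif (GGCU) and in the let-7 family, by stage (x axis) and replicate, with the mean ± SD beside the points. Each share overlaps between the 3 stages, at 1.33% to 1.78%, 16.0% to 25.3% and 32.6% to 53.6%.

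Entries whose making skips a step of the pathway were also examined. The hairpin of miR-320 is known to form without the Microprocessor and to use other export, and miR-122-5p, the abundant liver miRNA, is among those described with an EV sorting protein. Levels of miR-320-3p were 9718, 8863 and 7837 CPM in undifferentiated, 14233, 8994 and 6164 CPM in differentiated and 23356, 15482 and 12499 CPM in dedifferentiated EVs. Every dedifferentiated library was above every undifferentiated one, and the differentiated libraries spanned the gap. The log2 change was 0.95 (SE 0.249, adjusted p in edgeR = 0.0489), against a background of 7.48% of entries called (4.43% higher, 3.05% lower). Dedifferentiated against differentiated EVs, miR-320-3p had a log2 change of 0.77 (SE 0.248) and was not called (adjusted p in edgeR = 0.119, unadjusted 0.00952).

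For miR-122-5p the levels were 1430, 796 and 686 CPM in undifferentiated, 1502, 617 and 404 CPM in differentiated and 3534, 1557 and 2003 CPM in dedifferentiated EVs. The dedifferentiated libraries were above all others. It was higher in dedifferentiated than in differentiated EVs by 1.47 on the log2 scale (SE 0.346, adjusted p in edgeR = 0.0397), where 3.05% of entries were called (2.77% higher, 0.277% lower), and higher than in undifferentiated EVs by 1.30 (SE 0.345, adjusted p = 0.0489). These 3 EV calls were close to the threshold. Both calls against undifferentiated EVs were lost without any 1 of the 6 libraries, and the call against differentiated EVs without any but differentiated replicate 1. Adjusted p reached 0.352 over 12 alternatives for the latter and 0.285 and 0.250 for the former 2.

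miR-194-5p, also described with an EV sorting protein, was at 36.7, 54.2 and 53.9 CPM in undifferentiated, 37.2, 6.32 and 6.74 CPM in differentiated and 133, 58.2 and 86.3 CPM in dedifferentiated EVs, from 1 to 22 counts per library. The dedifferentiated libraries were the highest. Against differentiated EVs the log2 change was 2.5 (SE 0.833), which was not called by edgeR (adjusted p = 0.128, unadjusted 0.0113) and was called by the DESeq2 Wald test (adjusted p = 0.0446). miR-484, another hairpin made without the Microprocessor, had 0 to 22 counts per library, overlapped between all stages and was not called by either tool.

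The Dicer-independent miR-451-5p, whose hairpin is cut by Ago2, had 0 to 15 counts per library and was not tested. Both arms of miR-1306, whose hairpin lies in the Dgcr8 transcript, had 0 to 7 counts. For miR-1306-3p these were 0, 6 and 0 in undifferentiated, 7, 3 and 7 in differentiated and 0, 0 and 0 in dedifferentiated EVs. Neither arm was tested, so differences between stages in miR-451-5p and miR-1306 were not assessed at this depth.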

How the data were processed

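The cell mRNA table holds estimated counts that the authors made with Salmon, per the submitters' processing notes, which also name STAR, HISAT2 and DESeq2 1.26.0. Genome build and annotation are not given in the sources used here. The EV miRNA table holds raw counts, as the authors deposited it. Of the estimated counts 1.2% were fractional, and all were rounded. Tests used edgeR 4.0.16 in R 4.3.3: filterByExpr with a minimum count of 10, TMM scaling, column totals as library sizes and a quasi-likelihood fit over all 9 libraries of an assay without covariates. Calls needed an adjusted p under 0.05 (Benjamini-Hochberg, over all features). DESeq2 1.42.0 was an alternative. The methods were tested on simulated counts. Some cell type markers are not reported here. The genes and lists were chosen with earlier results of these data known. Named list genes were the 3 with the smallest p over the stages per group, or the whole group up to 4 genes. EV entries were a list of 22, of which 21 were in the table and 15 tested. Of entries holding a motif, the 3 with the highest mean share were named.

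Replicate numbers are those of the sample titles. The mRNA table's headers number the same libraries otherwise (header 1 is replicate 3, header 2 is replicate 1 and header 3 is replicate 2, at every stage), and libraries were matched by their library code. Same-numbered undifferentiated and differentiated cell libraries deviated together (r of 0.305, 0.234 and 0.269), so these numbers were taken to pair them, though the labels state no shared culture. The main tests were fitted without this pairing, and the fit with the replicate number as a block is an alternative to them. In the other cell comparisons r ran from 0.0279 to 0.212. In EVs r was 0.214, 0.18 and 0.308 for replicate 1 and ran from -0.0848 to 0.234 for replicates 2 and 3. These numbers were not taken to pair, although the EV libraries of replicate 1 did deviate together across stages.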

Additional observations from a re-analysis of the deposited data

How the results depend on the processing

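Counts of the 9 machinery genes called were 8 under dbcAMP, 7 after withdrawal and 2 in dedifferentiated against undifferentiated cells. With the replicate number as a block they were also 8, 7 and 2. Within the first sequencing project they were 3, 4 and 0, and with a log2 change above 0.5 also required 3, 2 and 0. Leaving out 1 library gave 5 to 7, 5 to 7 and 0 to 2, with 5 under dbcAMP without undifferentiated replicate 3. The count of 2 became 1 with DESeq2's size factors, without the filter, with the sequencing project as covariate and with TMM computed without the 10 most abundant genes. Of the wider list, 33, 25 and 11 genes were called, and 20, 16 and 0 within the first project. Shares of all genes called under these alternative settings are not given here, apart from the log2 threshold (43.8%, 31.1% and 19.7%). Lower counts within the first project or with a library left out therefore have no background beside them and say nothing particular to these genes.

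No called change of the 9 genes reversed. Uncalled changes near 0 did: with 1 library left out, Drosha after withdrawal ran from -0.0078 to 0.15, and between dedifferentiated and undifferentiated cells Tarbp2 ran from -0.011 to 0.16, Ago2 from -0.18 to 0.15 and Ago1 from -0.12 to 0.017. Ago1 there was also 0.016 with column totals alone and 0.022 within the first project. The cause was not tested.

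Of the 15 EV entries tested, 0, 1 and 2 were called in the 3 comparisons in order. With the replicate block they were 3 (let-7a-5p, let-7d-5p and let-7f-5p), 4 and 3, and over all 361 entries 10 (2.77%), 40 (11.1%) and 51 (14.1%), although the EV numbers were not taken to pair. Under that block let-7d-5p and let-7f-5p were also called lower after withdrawal (adjusted p in edgeR 0.0451 and 0.0460), and let-7a-5p higher in dedifferentiated against undifferentiated EVs (0.00872). After withdrawal and in dedifferentiated against undifferentiated EVs, DESeq2's size factors, column totals alone and mature entries alone each gave 0 and 0. Without the filter the latter gave 0, the DESeq2 Wald test gave 2 for the former, and leaving out 1 library gave 0 to 1 and 0 to 0. The difference in the share of GGAG, in percentage points, was 0.136, -0.156 and -0.0207, and 0.0583 to 0.183, -0.229 to -0.0790 and -0.0936 to 0.0516 with 1 library left out. Without the 10 most abundant entries it was -0.218, -0.762 and -0.98, and as a share of entries above 10 CPM 0.995, -0.413 and 0.582. For GGCU, -2.33 and 3.23 became 0.836 and -0.65 as a share of entries, and with 1 library left out the 3 differences ran from -3.60 to -0.953, 1.38 to 5.32 and -0.952 to 2.98. No exact p of these was below 0.2. Counts below about 10 per EV library limit what could be tested.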
